A study of Mus musculus with 7 samples.

Results

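10 genes of the antiviral response to type I interferon were followed in islets of the congenic strain NOD.ALRc8(D8Mit293-D8Mit137), labelled NOD_Idd22, and of NOD-Rag1-/- mice. They are Ifit1, Ifit2, Ifit3, Isg15, Oasl2, Mx1, Mx2, Rsad2, Usp18 and Irf7, taken by gene symbol from the annotation that accompanies the arrays, and all 10 were measured among 25793 symbols in all. Each has 1 probe set. NOD-Rag1-/- mice carry a disrupted Rag1, lack mature T and B cells and do not develop insulitis. The congenic mice have intact Rag1, and a segment of Chr 8 between the named markers comes from the alloxan-resistant strain ALR. Both are on the NOD background. The full strain name in the paper gives the disrupted Rag1 a donor other than NOD, so sequence linked to Rag1 may differ too. Rag1 genotype, such linked sequence and the ALR segment cannot be told apart in this comparison. There were 3 NOD-Rag1-/- pools and 4 congenic pools, each of islets from 2 mice, 10 to 12 weeks old, and no treatment of these mice is named. Pooling leaves the spread between single animals unmeasured.

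Type I interferons are secreted when a cell senses foreign or misplaced nucleic acid. They bind the receptor of Ifnar1 and Ifnar2, and the kinases Jak1 and Tyk2 then activate a complex that includes Stat2 and Irf9 and binds interferon-stimulated response elements in promoters. The proteins made in this way block viral RNA, alter other proteins or amplify the signal, and in islets an interferon signature is known to accompany autoimmune inflammation. Interferon gamma, made by T cells and natural killer cells, acts through a receptor of its own and induces a partly shared set of genes.

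Promoter sequence around the start site, from RefSeq on GRCm38.p6, was available for 7 of the 10 genes and is shown because the response element is what these genes are known to share. It was searched on both strands for GAAA followed, after 2 bases of any kind, by a second GAAA, the core of the element. The windows hold 250 bases before the start and 50 from it. The motif occurred in 4 of the 7 genes, Ifit1, Ifit3, Isg15 and Rsad2, and in 3.99% of the 27025 genes with a promoter. Among other interferon-stimulated genes it occurred in 24 of 51, and among interferon gamma induced genes in 10 of 17. No match to these letters was found in the windows of Ifit2, Oasl2 and Irf7, and Mx1, Mx2 and Usp18 were not searched. The stretches below run 5′ to 3′ on the strand of the gene, with the matched bases in capitals. In Isg15, 3 matches overlap into 1 run, while those of Ifit1, Ifit3 and Rsad2 lie on the opposite strand and so read TTTC.
Ifit1, chr19:34640765-34640833, plus strand: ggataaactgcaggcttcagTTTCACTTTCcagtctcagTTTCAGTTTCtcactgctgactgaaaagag
Ifit3, chr19:34583353-34583436, plus strand: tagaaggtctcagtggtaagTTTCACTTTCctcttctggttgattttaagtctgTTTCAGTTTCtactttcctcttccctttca
Isg15, chr4:156200855-156200916, minus strand: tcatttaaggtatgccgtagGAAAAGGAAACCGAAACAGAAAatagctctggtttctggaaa
Rsad2, chr12:26456543-26456592, minus strand: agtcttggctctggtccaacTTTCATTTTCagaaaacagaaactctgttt
The matches of Ifit1 begin 104 and 85 bases before the start, those of Ifit3 156 and 122, those of Isg15 78, 72 and 66, and that of Rsad2 120. A match is a description of the letters and was not tied to a level here.

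Values are log2 expression values made by RMA, which corrects background, equalizes the distribution of the arrays and summarizes the probes of a gene. Differences are congenic minus NOD-Rag1-/-. The lower quartile was 2.49 to 2.50 on the arrays of NOD-Rag1-/- replicates 2 and 3 and congenic replicate 1, a set of 3, and 2.64 to 2.68 on the other 4, so that differences inside each set are given beside the results. Each set holds 1 pool of a strain, NOD-Rag1-/- replicate 1 in the set of 4 and congenic replicate 1 in the set of 3, so these differences rest on that pool and are no replication of each other. NOD-Rag1-/- replicate 1 had a value of Xist of 2.56, against 9.69 to 10.28 in the other pools, and of the Y-linked Ddx3y of 6.25, against 1.99 to 2.08, as in males. Some results of the 10 genes are therefore also given without it, while the other lists are given with all pools only. The labelled tissue was borne out by its hormones, with Ins2, Gcg, Sst and Ppy between 10.34 and 12.95 in every pool. In bulk tissue a lower value can come from fewer cells of a type or from less RNA per cell, and these cannot be told apart.

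Of the 10 antiviral genes, 9 had a higher mean in the congenic islets and Mx1 had a lower mean, and the differences ran from -0.12 to 1.01. Their median was 0.47, beside 0.02 over all 34351 probe sets tested. With the p-values of limma adjusted over all probe sets, 0 of the 10 passed 0.05, where 0.146% of all probe sets passed as higher. At an unadjusted p under 0.05, 6 were higher (Isg15, Oasl2, Ifit2, Irf7, Usp18 and Rsad2), against a background of 5.62%. The threshold of the study, which adds an absolute difference over 0.5, was met by Ifit2, Isg15, Oasl2 and Irf7, where 3.81% of all probe sets met it as higher. An unpaired test of each probe set with equal variances called 0 of the 10 after adjustment, where 1 of all probe sets passed. It called 3 at an unadjusted p under 0.05, and the share over all probe sets was not worked out for that count. At the study's threshold it called 2, Isg15 and Oasl2, where 941 of all 34351 probe sets met it as higher. In 4 genes (Isg15, Oasl2, Rsad2 and Usp18) each congenic pool lay above each NOD-Rag1-/- pool, which held for 4.43% of all probe sets. Isg15 and Oasl2 met the study's threshold whichever pool was left out. The other calls at this threshold changed with the pools: 2 genes met it without congenic replicate 4, and 3 without congenic replicate 1, NOD-Rag1-/- replicate 1 or NOD-Rag1-/- replicate 2. Without NOD-Rag1-/- replicate 1 the median of the 10 genes was 0.44, with Isg15 at 0.59 and Ifit2 at 0.71, while Oasl2, Ifit1 and Irf7, all lowest in that pool, came to 0.77, 0.51 and 0.34. Ifit3, highest in that pool, came to 0.42. At an unadjusted p under 0.05 by limma, 3 genes were then higher (Ifit2, Isg15 and Oasl2), against 6 with all pools. With every array centred at its median, the median of all probe sets became -0.098 and only Oasl2 met the threshold.

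**Figure D1:**
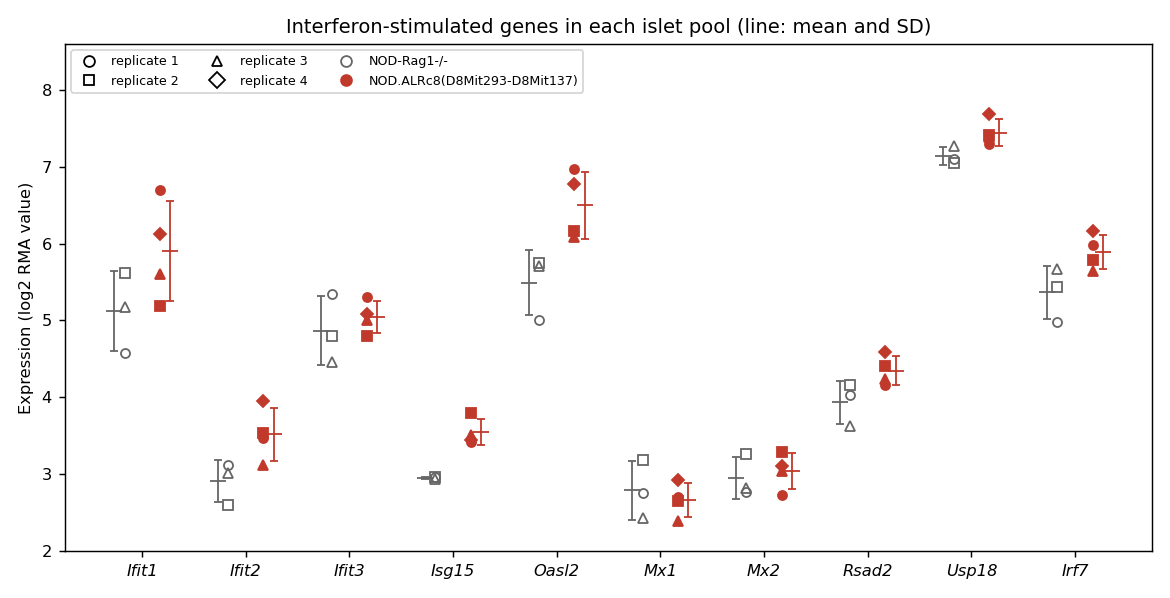
Expression of the 10 antiviral genes in each islet pool (y axis, log2 RMA value), with open grey symbols for 3 NOD-Rag1-/- pools and filled red symbols for 4 congenic pools, shape giving the replicate and lines the mean and SD. The groups do not overlap for Isg15, Oasl2, Rsad2 and Usp18, and they overlap widely for Ifit3, Mx1 and Mx2.

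Isg15 encodes a small ubiquitin-like protein that is attached to other proteins during the interferon response, and Usp18 the protease that removes it and also restrains signalling from the receptor. Isg15 (Chr 4 from 156199424 to 156200818) stood at 2.96, 2.96 and 2.94 in NOD-Rag1-/- replicates 1 to 3 and at 3.42, 3.79, 3.51 and 3.45 in congenic replicates 1 to 4. The lowest congenic pool was 0.46 above the highest NOD-Rag1-/- pool, although all 7 values lay below the median of their array. The means were 2.96 ± 0.013 (SD, n = 3) and 3.54 ± 0.17 (SD, n = 4), which is 1.50-fold, with a difference of 0.59 (SE 0.11, 95% interval 0.33 to 0.84, adjusted p = 0.143 by limma). This was the smallest p of the 10 genes, and the difference was 0.62 in the set of 4 arrays and 0.47 in the set of 3, an order kept for the genes that follow. By exact permutation of the pools the two-sided p was 0.0571, the smallest that the 35 orderings can give, so that no gene can pass 0.05 by this test. With array weights, which count noisier arrays less, Isg15 alone of the 10 genes passed the adjusted test (adjusted p = 0.0445 by limma).

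Usp18 (Chr 6 from 121245906 to 121270917) was the brightest of the 10, at 7.10, 7.05 and 7.27 in NOD-Rag1-/- and 7.29, 7.42, 7.39 and 7.69 in the congenic pools. The groups were separate, but congenic replicate 1 and NOD-Rag1-/- replicate 3 almost touched. The difference was 0.30 (SE 0.12, 95% interval 0.025 to 0.58, adjusted p = 0.495 by limma), or 1.23-fold, and 0.39 and 0.13 within the sets of arrays. Of the enzymes that attach Isg15, named here for that role, Uba7, which activates it, lay at 5.58 to 6.11 in NOD-Rag1-/- and 6.52 to 7.34 in the congenic pools, a difference of 1.12 (adjusted p = 0.145 by limma). The conjugating enzyme Ube2l6 and the ligase Herc6 overlapped between the strains, with differences of 0.28 and 0.39 (adjusted p = 0.715 and 0.511 by limma).

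Oasl2 encodes a member of the oligoadenylate synthetase family, enzymes that answer double-stranded RNA and lead to RNA decay. It had the largest difference of the 10 genes. Oasl2 (Chr 5 from 114896934 to 114912245) was at 5.01, 5.75 and 5.71 in NOD-Rag1-/- replicates 1 to 3 and at 6.97, 6.17, 6.09 and 6.77 in congenic replicates 1 to 4. NOD-Rag1-/- replicate 1 was the lowest pool by far, and congenic replicates 1 and 4 were the highest. The means of 5.49 ± 0.42 (SD, n = 3) and 6.50 ± 0.44 (SD, n = 4) differed by 1.01 (SE 0.28, 95% interval 0.34 to 1.67, adjusted p = 0.344 by limma), or 2.01-fold. Inside the sets of arrays it was 1.33 and 1.24, where the lone pools are the lowest and the highest of the 7, and the exact two-sided permutation p was again 0.0571. Pools of the strains overlapped in the other members of the family, named for this kinship. Oas2 differed by 0.57 (adjusted p = 0.448 by limma), while Oas1a, Oas3 and Oasl1 differed by -0.01, 0.01 and -0.25 (adjusted p = 0.992, 0.974 and 0.717 by limma).

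The Ifit proteins bind viral RNA and block its translation, and their genes lie in a cluster on Chr 19. Ifit1 (34640871 to 34650009) was at 4.58, 5.62 and 5.17 in NOD-Rag1-/- and 6.70, 5.19, 5.60 and 6.13 in the congenic pools. Of the congenic pools, replicates 1 and 4 exceeded every NOD-Rag1-/- pool. The difference of 0.78 (SE 0.39, 95% interval -0.14 to 1.70, adjusted p = 0.574 by limma) had the widest interval of the 10 genes, and it was 1.06 and 1.30 within the sets of arrays. It came to 0.52 without congenic replicate 1. Ifit2 (34550694 to 34576534) lay at 3.12, 2.59 and 3.02 in NOD-Rag1-/- and 3.46, 3.53, 3.12 and 3.95 in the congenic pools, all below the median of their array. Its congenic replicate 3 and NOD-Rag1-/- replicate 1 had the same value. The difference was 0.61 (SE 0.21, 95% interval 0.10 to 1.11, adjusted p = 0.465 by limma), or 1.52-fold, and 0.41 and 0.66 within the sets. Ifit3 (34583529 to 34588982) was at 5.34, 4.80 and 4.46 in NOD-Rag1-/- and 5.30, 4.80, 5.01 and 5.08 in the congenic pools. Here NOD-Rag1-/- replicate 1 was the highest pool, and the sign of the difference turned between the sets of arrays, -0.38 and 0.67, around 0.18 over all pools (SE 0.22, 95% interval -0.33 to 0.69, adjusted p = 0.794 by limma). Ifit3b, a near copy, lies in the same cluster, and probes of Ifit3 may read both. The probe set of Ifit3b was dimmer, at 2.20 to 2.47 in NOD-Rag1-/- and 2.15 to 2.86 in the congenic pools (0.10, adjusted p = 0.864 by limma). The 3 genes thus ranked the pools differently, with congenic replicate 1 highest for Ifit1, congenic replicate 4 for Ifit2 and NOD-Rag1-/- replicate 1 for Ifit3.

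Rsad2 encodes viperin, which makes a nucleotide that halts viral RNA synthesis. Rsad2 (Chr 12 from 26442743 to 26456452) was at 4.02, 4.16 and 3.62 in NOD-Rag1-/- and at 4.17, 4.40, 4.23 and 4.59 in the congenic pools. The groups were separate by less than 0.01, between NOD-Rag1-/- replicate 2 and congenic replicate 1. The difference was 0.41 (SE 0.16, 95% interval 0.032 to 0.79, adjusted p = 0.499 by limma), or 1.33-fold, and 0.38 and 0.27 within the sets of arrays. It came to 0.26 without NOD-Rag1-/- replicate 3, the lowest pool, and to 0.52, past the study's threshold, without NOD-Rag1-/- replicate 2. Its neighbour on Chr 12, Cmpk2, a mitochondrial nucleotide kinase named here for its position, spanned 6.80 to 6.93 in NOD-Rag1-/- and 6.55 to 7.94 in the congenic pools, a difference of 0.41 (adjusted p = 0.671 by limma).

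Irf7 encodes the transcription factor that drives the interferon alpha genes and so amplifies the response. Irf7 (Chr 7 from 141262706 to 141266481) was at 4.98, 5.44 and 5.67 in NOD-Rag1-/- and 5.98, 5.79, 5.65 and 6.16 in the congenic pools. Congenic replicate 3 lay just under NOD-Rag1-/- replicate 3, and the other congenic pools were above all NOD-Rag1-/- pools. The difference was 0.53 (SE 0.19, 95% interval 0.079 to 0.98, adjusted p = 0.477 by limma), or 1.44-fold. It was 0.88 in the set of 4 arrays and 0.42 in the set of 3.

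Mx1 and Mx2 encode large GTPases that trap viral nucleoproteins, and many laboratory mouse strains are known to carry defective alleles of Mx1. The allele of these mice is not given in the sources used here. Mx1 (Chr 16 from 97447035 to 97462907) was at 2.76, 3.18 and 2.42 in NOD-Rag1-/- and 2.70, 2.64, 2.39 and 2.92 in the congenic pools. Mx2 (Chr 16 from 97536081 to 97560970) was at 2.77, 3.26 and 2.82 in NOD-Rag1-/- and 2.73, 3.28, 3.05 and 3.11 in the congenic pools. Both genes lay below the array median in all 7 pools, and the groups overlapped almost fully. The differences were -0.12 (SE 0.20, 95% interval -0.59 to 0.35) for Mx1 and 0.09 (SE 0.17, 95% interval -0.32 to 0.50) for Mx2, with adjusted p of 0.853 and 0.878 by limma. The exact two-sided permutation p was 0.571 for Mx1 and 0.686 for Mx2, and both intervals span 0. The sign of Mx1 turned without NOD-Rag1-/- replicate 2 (0.075), and that of Mx2 turned with median centring (-0.031).

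**Figure D2:**
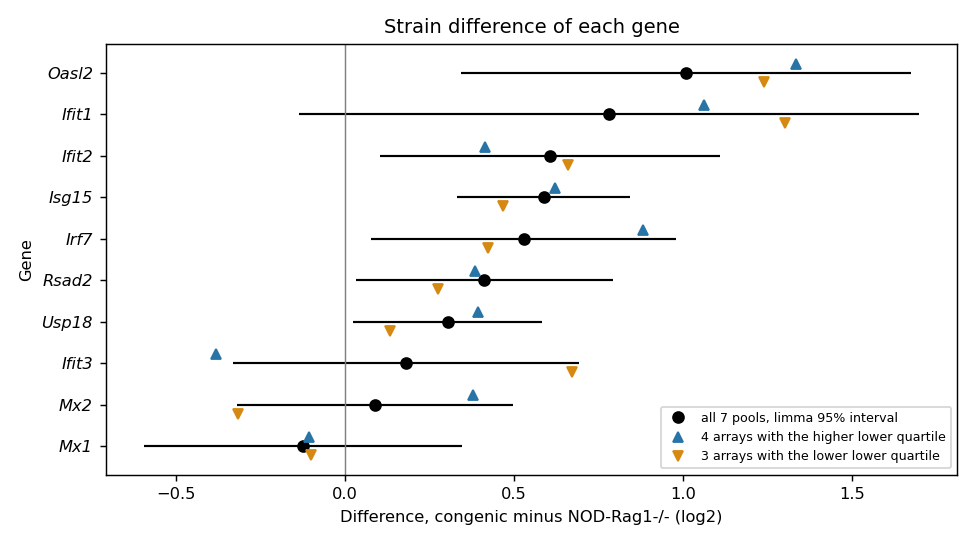
Difference of each gene between the strains (x axis, log2, congenic minus NOD-Rag1-/-), with black points and bars for all 7 pools and the 95% interval of limma, and triangles for the difference within each set of arrays. Oasl2 leads at 1.01, 7 genes are above 0 in both sets of arrays, and Ifit3 and Mx2 have triangles on both sides of 0.

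Across the pools, the genes kept no common order. After subtracting each gene's own mean, the average of the 10 genes was -0.34, -0.12 and -0.29 in NOD-Rag1-/- replicates 1 to 3 and 0.27, 0.10, 0.00029 and 0.38 in congenic replicates 1 to 4. Congenic replicate 4 had the highest value for 4 of the 10 genes, and congenic replicate 3 for 0. Congenic replicate 1 was highest for Ifit1 and Oasl2 but lay under the mean of the 7 pools for Usp18, Rsad2, Mx1 and Mx2. The profiles nearest to each other over the 7 pools were those of Rsad2 and Usp18, whose centred values differed by a root mean square of 0.22, and the farthest were Ifit1 and Mx2, at 0.68.

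**Figure D3:**
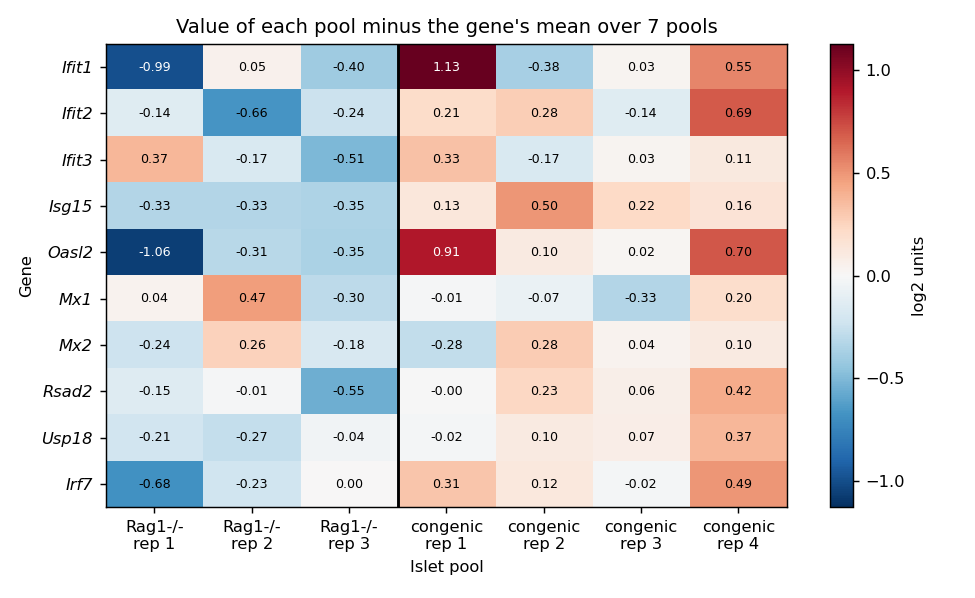
Value of each pool minus the mean of that gene over all 7 pools (colour and printed number, log2 units), with genes in rows and the 3 NOD-Rag1-/- pools left of the line. The strongest cells are Ifit1 and Oasl2, low in NOD-Rag1-/- replicate 1 and high in congenic replicate 1, while Mx1 and Mx2 show no split by strain.

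Of the other genes of the pathway, the interferons themselves had small differences, though several of them were dim. For 20 genes of type I and type III interferons, the median difference was 0.11, 0 passed an adjusted p of 0.05 by limma, and 1 was higher at an unadjusted p under 0.05. The share higher at that unadjusted p over all probe sets was 5.62%. Ifnb1, the first interferon made by most cells, was at 2.18 to 2.46 in NOD-Rag1-/- and 2.21 to 2.51 in the congenic pools. Ifna2, the gene of the list with the smallest p, spanned 1.86 to 2.58 and 2.55 to 3.01, and its groups overlapped. The means of Ifnb1 and Ifna2 lay above only 19.8% and 23.5% of all probe sets. Such dim values limit what their differences can show. Of 6 receptor chains, 0 passed the adjusted test and 3 were higher at an unadjusted p under 0.05, with a median of 0.18. Ifnar1, which all type I interferons bind, was at 7.56 to 7.75 and 7.85 to 7.98, a difference of 0.25 (SE 0.08, adjusted p = 0.440 by limma), and its partner Ifnar2 differed by -0.18 with overlapping pools. Ifngr1, the ligand-binding chain of the interferon gamma receptor, differed by more, from 6.67 to 6.91 up to 7.36 to 8.15 (1.02, adjusted p = 0.151 by limma). Its partner Ifngr2 spanned 6.60 to 6.84 and 6.72 to 7.67 and also met the study's threshold, with a difference of 0.51 (adjusted p = 0.521 by limma) and overlapping pools.

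Stat2 and Irf9, which act together on the response element, were each higher in every congenic pool than in any NOD-Rag1-/- pool. They differed by 0.68 and 0.61 (adjusted p = 0.235 and 0.321 by limma). Irf1, a factor induced by interferon gamma, differed by 0.86 (adjusted p = 0.138 by limma), without overlap. Over all 11 signalling genes the median was 0.40, 0 passed the adjusted test, and 5 were higher at an unadjusted p under 0.05. The share over all probe sets was 5.62%.

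Sensors of nucleic acid, together with their adaptors and kinases, numbered 15 on the arrays. Their median difference was 0.36, 0 passed the adjusted test, and 7 were higher at an unadjusted p under 0.05, against 5.62% of all probe sets. The largest differences were those of Zbp1, a sensor of Z-form nucleic acid (2.08, adjusted p = 0.107 by limma), and Tmem173, the adaptor STING (2.01, adjusted p = 0.162 by limma). Tlr9 and Aim2, receptors of DNA, differed by 1.37 and 0.76, and their groups did not overlap. Tlr3, a receptor of double-stranded RNA, lies on Chr 8 from 45395665 to 45410608, inside the ALR segment by the marker positions in the paper. It differed by 0.50 (adjusted p = 0.504 by limma). The RNA sensors Ifih1 and Ddx58 differed by 0.66 and 0.54, with overlapping pools.

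The list of other interferon-stimulated genes shares Stat2, Irf9, Zbp1 and more with the lists above. Of its 65 measured genes, 0 passed the adjusted test by limma, 28 were higher and 1 lower at an unadjusted p under 0.05, and the median difference was 0.45, near the 0.47 of the 10 antiviral genes. In 22 of them every congenic pool lay above every NOD-Rag1-/- pool. Over all probe sets, 4.43% did so, and 5.62% were higher at an unadjusted p under 0.05. Phf11b differed by 1.97, Ifitm3, which blocks the entry of viruses, by 1.89, and Ifi44 by 1.42 (adjusted p = 0.0847, 0.102 and 0.103 by limma). The values of Ifitm3 were 5.74 to 6.11 and 6.99 to 8.32. Bst2, or tetherin, which holds virus particles at the cell surface, is encoded on Chr 8 from 71534259 to 71537437, also inside the ALR segment. It was at 5.39 to 6.26 in NOD-Rag1-/- and 4.83 to 5.71 in the congenic pools, with overlap, a difference of -0.41 (SE 0.27, adjusted p = 0.641 by limma). Ddx60, in the same segment, differed by 0.63 (adjusted p = 0.575 by limma).

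Genes mainly induced by interferon gamma, a set partly shared with type I interferon, are set beside these. The list includes Ifng itself, and Irf1, which is also among the signalling genes above. Of 22, 6 passed the adjusted test by limma, all as higher, 17 had groups that did not overlap, and the median difference was 1.42. Over all probe sets, 0.146% passed as higher, and in 4.43% every congenic pool lay above every NOD-Rag1-/- pool. Cxcl9, a chemokine that draws T cells, spanned 3.77 to 4.24 and 8.46 to 10.03, a difference of 5.22 (SE 0.43, adjusted p = 0.00900 by limma). The GTPases Gbp7, Gbp2, Iigp1 and Irgm2 rose by 2.04, 3.33, 4.96 and 2.12, and Tap1, the peptide transporter of antigen presentation, by 1.57 (adjusted p = 0.0232, 0.0461, 0.0490, 0.0498 and 0.0498 by limma). Gbp3, Igtp, Gbp5 and Cxcl10 were next by p, at 2.42, 2.52, 2.30 and 2.86 (adjusted p = 0.0520, 0.0694, 0.0780 and 0.103 by limma). Ido1, the gene of this list on Chr 8, lies outside the ALR segment by the marker positions in the paper. It was at 3.45 to 4.12 and 3.80 to 3.84, a difference of 0.02 (adjusted p = 0.971 by limma). Ifng itself was low, 2.69 to 3.09 and 3.09 to 3.40, with a difference of 0.25 (adjusted p = 0.579 by limma). No test of the difference between this list and the 10 antiviral genes was made.

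**Figure D4:**
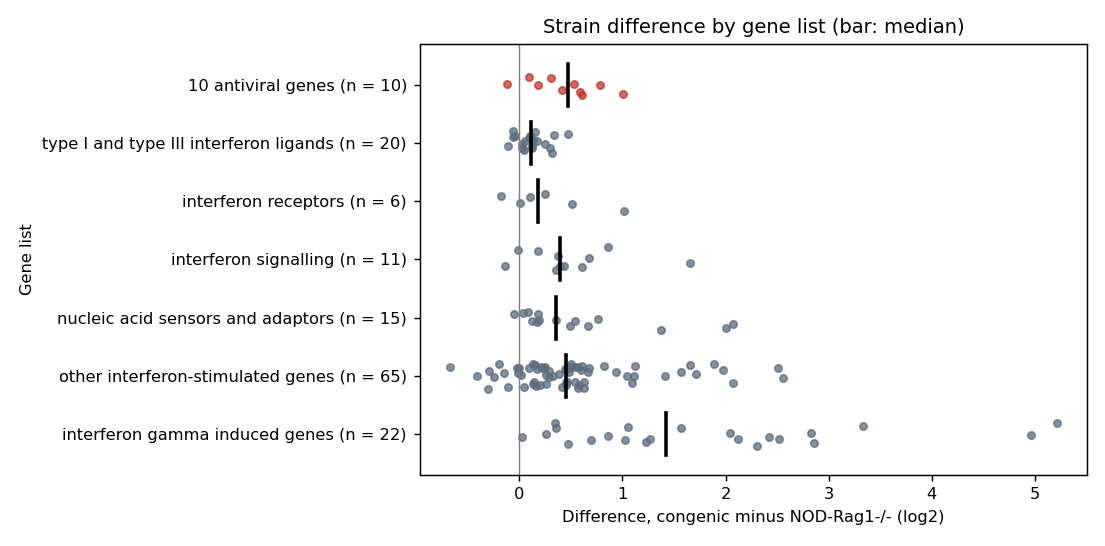
Difference of every measured gene of each list between the strains (x axis, log2, congenic minus NOD-Rag1-/-), a point per gene and a black bar at the list's median, with the 10 antiviral genes in red. The medians run from 0.11 for the interferons to 1.42 for genes induced by interferon gamma, with the 10 antiviral genes at 0.47, and Cxcl9 of the latter lies at 5.22.

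Markers of several other cells moved with strain beside the antiviral genes. As sums of unlogged values, the 6 T cell markers reached 76.6 to 116 in NOD-Rag1-/- and 339 to 1134 in the congenic pools, the 5 B cell markers 67.1 to 89.6 and 1781 to 4212, the 4 endothelial markers 169 to 433 and 609 to 1159, and the 4 acinar markers 187 to 1197 and 1921 to 11876. Every marker of these 4 lists was higher in each congenic pool than in any NOD-Rag1-/- pool, against 4.43% of all probe sets. RMA values have no true 0, and the T cell receptor gene Cd3g and the B cell gene Ms4a1 were dimmest in NOD-Rag1-/-, at 2.61 to 2.99 and 2.40 to 3.09. Sums overlapped for 6 markers of macrophages and dendritic cells (648 to 1055 and 565 to 2538), for 6 of plasmacytoid dendritic cells, the professional makers of type I interferon (224 to 266 and 240 to 307), for 4 of natural killer cells (22.8 to 30.4 and 27.8 to 40.9) and for 10 endocrine genes (30007 to 33031 and 28016 to 37484). Siglech, the defining marker of plasmacytoid dendritic cells, differed by 0.79 with overlapping pools (adjusted p = 0.534 by limma). Pools did not overlap for 2 others of its list, Irf8 and Ly6d. Irf8, a factor of myeloid and B cells, is encoded on Chr 8 from 120736358 to 120756694, outside the ALR segment by the marker positions in the paper. It was at 4.28 to 4.52 and 5.32 to 6.17 (1.46, adjusted p = 0.0780 by limma), and Ly6d differed by 0.25 (adjusted p = 0.404 by limma). The rest of the list overlapped, with Bst2 lower in the congenic islets (-0.41) and Ccr9 and Tcf4 at 0.30 and 0.05. Gene by gene, the markers of macrophages and dendritic cells had a median difference of 1.08, above that of the antiviral genes. Of the 6, 4 met the study's threshold (Adgre1, Csf1r, Itgax and Aif1, at 0.99 to 1.17), which 3.81% of all probe sets met as higher. Lyz2, with the largest difference (1.21), and Cd68 (-0.37) did not meet it. The set of 4 arrays and the set of 3 gave medians of 0.40 and 0.45 for the 10 antiviral genes. The part of any of these cells in the values of the antiviral genes was not tested.

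The 10 symbols whose centred values over the 7 pools came nearest to the average of the antiviral genes were Pygb, Arpc4, Arl6ip5, Traf2, Tapbp, Cdca7, Hdac7, Mcl1, Cd200 and Rbms1. Their root mean square difference from that average was 0.057 to 0.087, beside a median of 0.31 over 25783 symbols and 0.16 to 0.46 for the antiviral genes themselves. Of the antiviral genes, Usp18 lay nearest to the average. Tapbp, or tapasin, which helps load peptides on MHC class I, was among the 10 nearest symbols at 0.078, with a strain difference of 0.39 (adjusted p = 0.310 by limma). These symbols were picked by this distance, so their closeness and strain differences largely follow from that choice.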

How the data were processed

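Islet RNA of 7 pools was hybridized to Affymetrix Mouse Gene arrays. The authors deposited log2 expression values made with RMA, of unstated version, and a table of their own comparison. The log2 fold changes and deposited p-values of that table were not used, since its fold changes did not follow the expression values by probe set. The reason for this mismatch was not tested. Its probe set names, symbols and positions were used to match genes to values. The build of these positions is not given in the sources used here, but 98.2% of 22061 symbols, and all 10 antiviral genes, overlap the RefSeq gene of that name on GRCm38.p6. Tests ran on the 34351 annotated probe sets, leaving out 121 that had no annotation, and no filter on dim probe sets was applied. In the deposited values, 52.5% of probe sets have a value that recurs exactly in another pool.

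The strain difference was fitted by lmFit and eBayes, without a block, using limma 3.58.1 under R 4.3.3, with Benjamini-Hochberg adjustment over all probe sets. Single genes also had an exact permutation test over pools (scipy 1.17.1). The brightest probe set stood for a gene. The genes and lists were chosen with earlier results of these data known. The genes named are all 10 antiviral genes, then, from each list other than the cell markers, genes past an adjusted p of 0.05, up to 4 others with the smallest p and those on Chr 8, and others where said. For the cell markers, sums and some of the genes are given. Listed symbols missing from the annotation were looked up among RefSeq synonyms. The alternatives were other normalizations, a brightness filter, other variance models and tests, blocks, leaving out pools, and other probe set rules. The fit was tested on simulated data. Beyond the pooling of mice, the labels do not say how the pools were kept apart, so p-values measure the spread between these pools, part of which may be technical. 1 gene of the lists is not reported here by name. The number of arrays limits the precision.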

Additional observations from a re-analysis of the deposited data

How the results depend on the processing

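The median of the 10 antiviral genes stayed between 0.35 (arrays centred at their median) and 0.52 (without congenic replicate 3), against 0.47 as reported, and was 0.39 with the replicate number as a block. Genes past the adjusted test by limma were 0 in each alternative run except array weights, which gave 1 (Isg15). Of the 10 genes, 4 met the study's threshold. This became 1 with centring (Oasl2) or the replicate block (Isg15), and 2 with brighter probe sets only (Oasl2 and Irf7, of 6 genes kept), with an equal-variance t-test and with unequal variances (Isg15 and Oasl2 in both). Leaving out a pool gave 2 to 4. Quantile normalization gave 3 (Ifit2, Oasl2 and Irf7), with Isg15 just under the threshold at 0.49. With the array set as a block the count stayed 4, but Ifit1 took the place of Ifit2. Deviations of same-numbered pools from their group means had correlations of -0.38, -0.14 and -0.11. With so few pools, spread over the 2 sets of arrays, these cannot decide whether the numbers pair them.

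Over all probe sets, 54 passed the adjusted test by limma. The count was 97 with brighter probe sets, 233 with array weights, 31 with the array set as a block, 1 with an equal-variance t-test, 0 with unequal variances (where 1204 met the study's threshold) and 0 with the replicate block, and 10 to 258 when a pool was left out. The study's threshold was met by 1920, and by 3560 with array weights, 1248 with an equal-variance t-test, 1148 with the replicate block and 1264 to 3299 without a pool. The sign turned for 3 genes. Ifit3 was -0.38 in the set of 4 arrays and -0.023 to 0.42 without a pool, lowest without NOD-Rag1-/- replicate 3 and highest without NOD-Rag1-/- replicate 1. Mx1 was 0.037 with array weights and -0.31 to 0.075 without a pool, highest without NOD-Rag1-/- replicate 2. Mx2 was -0.0052 with quantile normalization, -0.031 with centring, -0.32 in the set of 3 arrays and -0.0032 to 0.25 without a pool, lowest without NOD-Rag1-/- replicate 1. The cause was not tested. Ifit2, Isg15, Mx1 and Mx2 lay below the array median in every pool, which limits what their differences can show.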
